A study of Mus musculus with 6 samples.

Results

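Chemokines and cytokines that epithelial cells secrete were followed in mouse pancreatic tumour organoids with and without a hairpin against Scrib, the gene of a scaffold protein of the basolateral cell side. The genes were named by symbol, Cxcl1, Cxcl2, Cxcl5, Cxcl16, Ccl20, Il1a, Il33, Lif, Csf1 and Csf2, and all 10 were found among the 54453 genes of the deposited tables. The tumour lines T113, T118 and T91 were of the KPC kind, as mice that develop pancreatic ductal adenocarcinoma (PDAC) are commonly called, and the labels give all of them the genotype KPF/FC and the cell type PDAC KPF/FC organoid. Each line gave 1 library with a short hairpin RNA against Scrib (number 5523) and 1 with a control hairpin labelled shRNA Renilla. Each hairpin thus had 3 libraries and each line had 2. All cultures were grown in Matrigel, a gel of extracellular matrix in which epithelial cells form organoids. T113 was at passage 13 and T118 at passage 11, both from males, whereas T91 was at passage 10 and from a female. Line, sex and passage therefore cannot be told apart, and 1 hairpin sequence stands for the loss of Scrib.

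Cxcl1, Cxcl2 and Cxcl5 are CXC chemokines that bind the receptor Cxcr2 and draw neutrophils to tissue, and in PDAC they are known from both tumour and stromal cells. Their genes are switched on by NF-kB, often after interleukin-1 or tumour necrosis factor, and their transcripts are short-lived because proteins such as Zfp36 bind AU-rich stretches in the tail of the message. Il1a and Il33 encode alarmins, cytokines of the interleukin-1 family that are kept in the cell and act when it is damaged. Lif signals through Lifr and the shared subunit Il6st to STAT3, and Csf1 and Csf2 feed macrophages and granulocytes.

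The promoters of neighbouring neutrophil chemokine genes are shown because these genes parted between the lines. Cxcl5, Cxcl1 and Cxcl2 lie in that order on the plus strand of chromosome 5 (GRCm38). Cxcl5 spans chr5:90759360-90761624, Cxcl1 spans chr5:90891241-90893115 and Cxcl2 spans chr5:90903871-90905938, so the starts of Cxcl1 and Cxcl2 are 12630 bases apart. Cxcl3, a further Cxcr2 ligand, lies between Cxcl5 and Cxcl1. The RefSeq windows (GRCm38.p6, plus strand) run from 250 bases before the annotated start to 50 bases after it, at chr5:90890995-90891294 for Cxcl1, chr5:90903649-90903948 for Cxcl2 and chr5:90785851-90786150 for Cxcl3. Capitals mark matches to the NF-kB consensus and to the TATA letters TATAAA.
Cxcl1: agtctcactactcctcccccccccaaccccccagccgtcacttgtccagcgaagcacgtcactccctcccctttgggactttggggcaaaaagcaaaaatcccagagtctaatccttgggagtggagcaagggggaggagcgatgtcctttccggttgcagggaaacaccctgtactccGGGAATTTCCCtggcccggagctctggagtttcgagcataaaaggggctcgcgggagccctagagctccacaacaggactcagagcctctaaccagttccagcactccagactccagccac
Cxcl2: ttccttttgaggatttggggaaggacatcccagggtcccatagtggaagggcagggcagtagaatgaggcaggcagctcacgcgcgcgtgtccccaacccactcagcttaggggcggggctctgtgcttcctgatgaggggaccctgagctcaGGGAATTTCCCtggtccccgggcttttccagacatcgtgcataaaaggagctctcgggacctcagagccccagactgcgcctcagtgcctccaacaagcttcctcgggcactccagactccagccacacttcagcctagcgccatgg
Cxcl3: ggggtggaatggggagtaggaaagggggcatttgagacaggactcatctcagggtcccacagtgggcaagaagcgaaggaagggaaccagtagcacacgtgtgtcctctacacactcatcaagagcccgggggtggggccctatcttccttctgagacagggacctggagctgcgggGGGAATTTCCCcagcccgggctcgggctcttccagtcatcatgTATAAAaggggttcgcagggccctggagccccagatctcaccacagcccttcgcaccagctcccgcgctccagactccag

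All 3 windows held the same 11-base run, GGGAATTTCCC, which matches the NF-kB consensus on both strands. It began 71 bases before the RefSeq start in Cxcl1, 97 in Cxcl2 and 73 in Cxcl3. The gene spans given above are from GENCODE M21, and the RefSeq starts of Cxcl1 and Cxcl2 lie inside them, that of Cxcl2 further in. The distances therefore depend on the annotation and do not compare the place of the run between genes. Over all 32851 RefSeq promoter windows, 4.51% held a match to the NF-kB consensus on either strand. RefSeq windows were matched for 8 of the 10 genes. Ccl20 and Csf1 also held 1 NF-kB match each, 80 and 154 bases before the start, while the windows of Il1a, Il33, Lif and Csf2 held no such letters. The AP-1 letters TGANTCA, found in 7.81% of all windows, were present in Il1a and Lif. TATAAA, found in 13.6%, was present in Cxcl3, Il1a and both annotated windows of Il33. Matches are letters in a window and no measure of binding.

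The AU-rich letters are shown for 4 genes that differ widely in level. In the 3′ UTR of the transcript with the longest coding sequence (GENCODE M21), the pentamer ATTTA occurred at least once in 10 of 10 genes, against 61.5% of 20674 protein-coding genes. It occurred at least 5 times in 6 of the 10, against 18.9% of all. The windows below are, for each gene, the 30 bases of its 3′ UTR with the most ATTTA, the first where several tied. They are read in the direction of the transcript, with every ATTTA in capitals. They lie at chr5:90892602-90892631 (plus strand) for Cxcl1, chr5:90905327-90905356 (plus) for Cxcl2, chr11:54247329-54247358 (minus) for Csf2 and chr11:4272414-4272443 (plus) for Lif.
Cxcl1: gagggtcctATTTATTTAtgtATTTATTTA
Cxcl2: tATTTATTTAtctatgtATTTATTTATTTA
Csf2: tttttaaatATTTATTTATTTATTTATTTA
Lif: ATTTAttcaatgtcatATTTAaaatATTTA

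Per kilobase of 3′ UTR, Csf2 had 28.4 such pentamers, Cxcl2 15.0, Cxcl1 11.8 and Ccl20 8.57, each more than in at least 98.0% of protein-coding genes. Cxcl5 had 4.5 per kilobase, more than in 89.8% of protein-coding genes, and Il1a had 2.7. Cxcl16 had 1.41 per kilobase, Il33 1.80, Csf1 1.90 and Lif 2.20, against a median of 1.12 over all genes. A relation of these letters to the level of the genes was not tested.

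The estimated counts of the libraries summed to between 24035559 and 36235773, and 14169 genes passed the filter on low counts. The target checked the labels, since Scrib stood at 35.0 CPM (counts scaled to library size, with TMM factors) in T113, 30.0 in T118 and 29.7 in T91 with the Scrib hairpin. With the Renilla hairpin it stood at 157 CPM in T113, 158 in T118 and 177 in T91, and it was the 1 gene, or 0.00706% of those tested, with an adjusted p under 0.05 (log2 fold change -2.38, SE 0.12, adjusted p = 0.00582, edgeR's quasi-likelihood test with line as a term and Benjamini-Hochberg adjustment over all genes tested). The 9 epithelial marker genes summed to between 7566 and 10773 CPM with the Scrib hairpin and between 8297 and 13413 CPM with the Renilla hairpin, led by the keratin genes Krt8, Krt7 and Krt19. The pan-leukocyte gene Ptprc was at 0 to 0.101 CPM in all 6 libraries. Macrophage and monocyte markers (9 genes, none at 0 throughout) summed to between 2.18 and 6.48 CPM with the Scrib hairpin and between 3.42 and 4.68 with the Renilla hairpin, most of it Cd68. The 8 markers of T, B and NK cells summed to at most 0.135 CPM in any library with Cd4, Cd8a, Ncr1 and Nkg7 at 0, and the 6 endothelial markers to at most 1.68 CPM. Acinar and endocrine markers (10 genes, with Prss1, Amy2b, Ins1 and Ins2 at 0) summed to between 0.183 and 1.95 CPM with the Scrib hairpin and between 0.771 and 2.07 with the Renilla hairpin. Neutrophil markers (7 genes, Elane at 0) summed to 39.9 CPM with the Scrib hairpin and 42.0 with the Renilla hairpin in T118, nearly all of it Ly6g, and to at most 12.5 CPM in the other lines. Fibroblast markers (9 genes, Lum at 0) summed to 7.91 CPM with the Scrib hairpin in T91 and to at most 2.27 CPM in the other 5 libraries.

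Which line made each factor was the clearest difference among these genes. T91 had the highest mean level of 9 of the 10, and Cxcl1 was the exception, highest in T113 and close to its detection limit in T91. Of those with T91 highest, Csf2 was barely detected and Il1a had its highest library in T118. How many of all genes had their highest mean in T91 was not counted. Of the 9 genes that passed the filter on low counts, 7 differed between lines (edgeR's F-test of the line terms, adjusted p under 0.05), where 14% of all genes tested did. The Lif call is lost with no hairpin term (adjusted p of 0.0915) and the Cxcl16 call without the T113 library of the Scrib hairpin (0.0791), which leaves 6 in each case. For 7 of the 9, both T91 libraries lay above the other 4, which held for 13.1% of all genes. Per kilobase of exon, the scale that allows genes to be compared, Cxcl5 led in T113 and T91 and Cxcl16 led in T118. The summed level of the 10 genes was 103 CPM in T113, 89.5 in T118 and 283 in T91 with the Scrib hairpin, and 114, 101 and 268 CPM in the same lines with the Renilla hairpin.

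**Figure D1:**
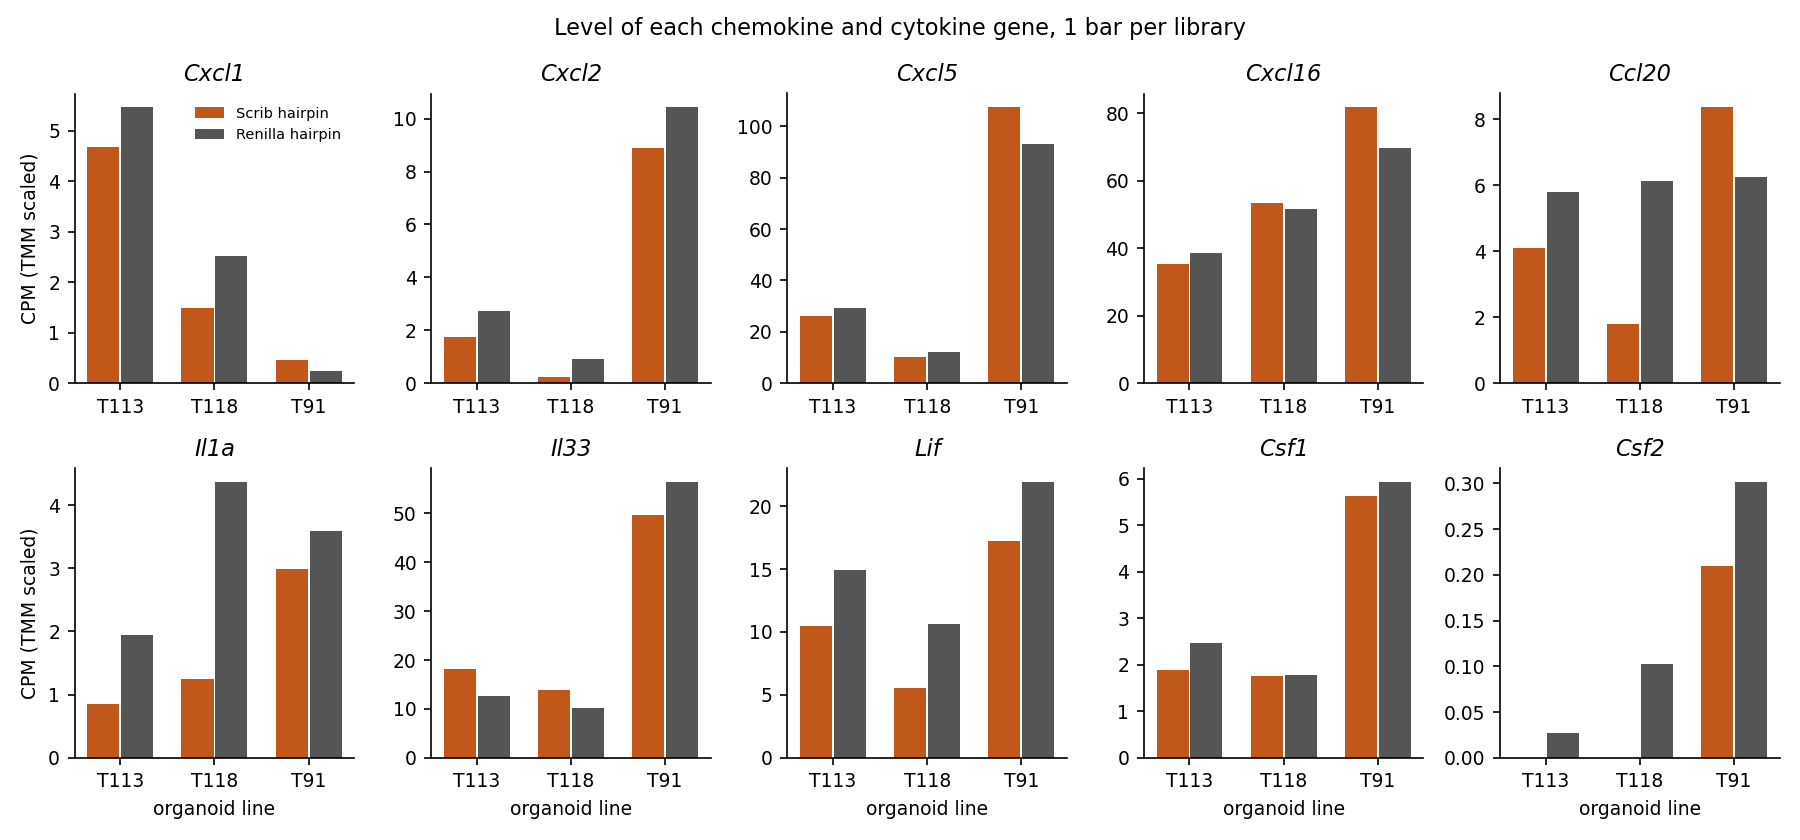
CPM (y axis, linear, own scale per gene) of each gene in the 6 libraries, grouped by organoid line, with the Scrib hairpin at the left and the Renilla hairpin at the right of each pair. Both T91 bars are the tallest for Cxcl2, Cxcl5, Cxcl16, Ccl20, Il33, Lif and Csf1, and the shortest for Cxcl1.

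Among the neutrophil chemokines, Cxcl5 had the highest level per kilobase of exon, between 5.46 and 57.7 CPM per kilobase, against 0.106 to 5.04 for Cxcl2 and 0.125 to 2.92 for Cxcl1. Its order was T91 over T113 over T118 with no overlap between lines. With the Scrib hairpin Cxcl5 had 26.1 CPM in T113, 10.2 in T118 and 107 in T91, and with the Renilla hairpin it had 29.4 in T113, 12.3 in T118 and 93.3 in T91. The level was 3.62-fold lower in T113 than in T91 (log2 fold change -1.86, SE 0.15, adjusted p = 0.00165), and T113 against T91 was called for 6 of the 9 genes, where 6.06% of all genes were. It was 8.96-fold lower in T118 than in T91 (log2 -3.16, SE 0.16, adjusted p = 0.000193), a contrast called for 6 of the 9 genes and for 11% of all. T113 stood 2.47-fold above T118 (log2 1.31, SE 0.15, adjusted p = 0.00569), a contrast called for 2 of the 9 genes and for 10.2% of all.

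Cxcl2 followed the order of Cxcl5, with a wider span. Its levels with the Scrib hairpin were 1.76 CPM in T113, 0.220 in T118 and 8.87 in T91, and with the Renilla hairpin 2.75 in T113, 0.921 in T118 and 10.4 in T91. Those values rest on 6 to 311 counts per library, and the 3 lines did not overlap. Cxcl2 was 4.43-fold lower in T113 than in T91 (log2 -2.15, SE 0.38, adjusted p = 0.0249), 18.2-fold lower in T118 than in T91 (log2 -4.18, SE 0.44, adjusted p = 0.00280) and 4.11-fold higher in T113 than in T118 (log2 2.04, SE 0.44, adjusted p = 0.0354). The first and the third of these contrasts missed the threshold without the T113 library of the Scrib hairpin (adjusted p of 0.103 and 0.112) or of the Renilla hairpin (0.148 and 0.133), and with no hairpin term (0.0540 and 0.0675). The first also missed it without the T91 library of the Scrib hairpin (0.0520). Of the distinct 31-base words in Cxcl2 transcripts, 7.59% also occur in Cxcl3, so some reads could be assigned to either gene.

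Cxcl1, which lies next to Cxcl2 and carries the same NF-kB letters, was lowest in the line where Cxcl2 was highest, while both stood higher in T113 than in T118. It had 4.69 CPM in T113, 1.50 in T118 and 0.463 in T91 with the Scrib hairpin, and 5.47 in T113, 2.53 in T118 and 0.235 in T91 with the Renilla hairpin. The T91 values come from 11 counts with the Scrib hairpin and 7 with the Renilla hairpin, and all 4 libraries of the other lines were higher. Cxcl1 was 14.6-fold higher in T113 than in T91 (log2 3.87, SE 0.46, adjusted p = 0.00581) and 5.75-fold higher in T118 than in T91 (log2 2.52, SE 0.47, adjusted p = 0.0197). T113 and T118 did not overlap, but their difference did not pass with the low-count filter and all libraries (log2 1.35, SE 0.38, adjusted p = 0.0783). With no low-count filter it passed (adjusted p = 0.0244 by edgeR). None of the 31-base words of Cxcl1 occurs in another gene. Per kilobase of exon, the ratio of Cxcl1 over Cxcl2 was 2.94 in T113, 7.54 in T118 and 0.0575 in T91 with the Scrib hairpin, and 2.20 in T113, 3.02 in T118 and 0.0248 in T91 with the Renilla hairpin. Cxcl1 thus exceeded Cxcl2 in both libraries of T113 and T118 and in neither of T91. The T118 ratio with the Scrib hairpin rests on 6 counts of Cxcl2.

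The other genes of the chromosome 5 cluster that could be tested had the T91 pattern. Cxcl3 was at 1.43 CPM in T113, 0.586 in T118 and 8.83 in T91 with the Scrib hairpin, and at 1.05, 0.819 and 7.14 CPM in the same lines with the Renilla hairpin (line effect, adjusted p = 0.00219). Ppbp, a platelet chemokine precursor that also signals through Cxcr2, had log2 fold changes of -3.09 in T113 and -2.83 in T118 against T91 (line effect, adjusted p = 0.0302), of which the first did not pass by itself (adjusted p = 0.0508). The receptor gene itself, Cxcr2, was low throughout, at 1.01 CPM in T113, 1.24 in T118 and 1.77 in T91 with the Scrib hairpin and at 0.647, 1.19 and 1.14 CPM in those lines with the Renilla hairpin.

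**Figure D2:**
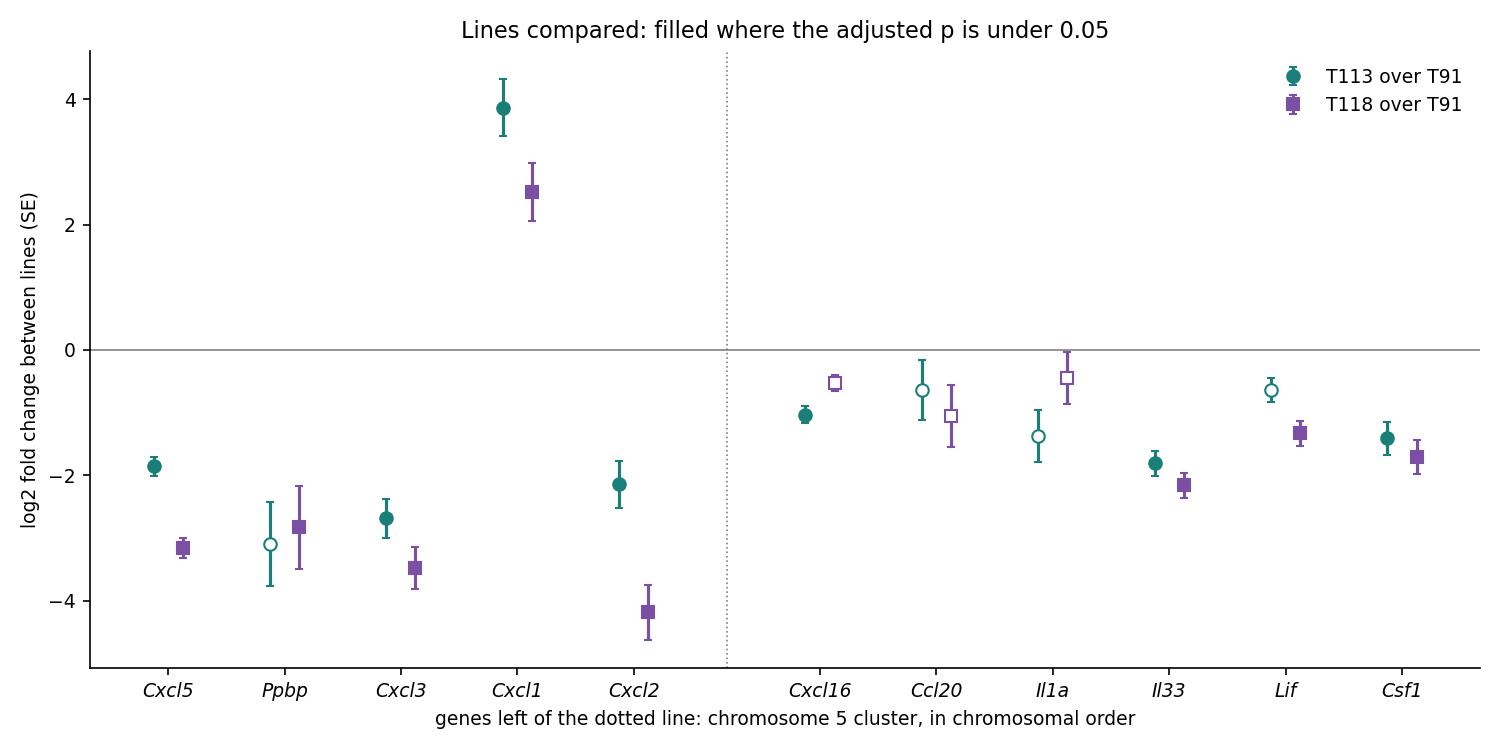
Log2 fold change (y axis, error bars are the SE of the edgeR fit) of T113 over T91 and of T118 over T91, with genes of the chromosome 5 cluster left of the dotted line and filled symbols for an adjusted p under 0.05. Cxcl1 lies at 3.87 and 2.52 while its neighbours Cxcl5, Ppbp, Cxcl3 and Cxcl2 lie below 0 in both contrasts.

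Cxcl16 (chr11:70453983-70459984, minus strand), a chemokine made as a membrane protein that binds Cxcr6 on T cells once shed, was second to Cxcl5 per kilobase on average and differed least between lines among the genes called. It had 35.3 CPM in T113, 53.4 in T118 and 81.8 in T91 with the Scrib hairpin. With the Renilla hairpin it had 38.7 CPM in T113, 51.6 in T118 and 69.8 in T91. The order was T91 over T118 over T113 without overlap. It was 2.04-fold lower in T113 than in T91 (log2 -1.03, SE 0.13, adjusted p = 0.00750), a call lost without the T113 library of the Scrib hairpin (adjusted p of 0.125). T118 against T91 lay at the threshold (log2 -0.53, SE 0.13, adjusted p = 0.0507). Ccl20 (chr1:83116766-83119167, plus strand), the ligand of Ccr6 that draws dendritic cells and some T cells, had 4.10 CPM in T113, 1.79 in T118 and 8.37 in T91 with the Scrib hairpin, and 5.79, 6.14 and 6.27 CPM in the same lines with the Renilla hairpin. The 3 lines were nearly level with the Renilla hairpin and spread out with the Scrib hairpin, and the line effect did not pass (adjusted p = 0.352). It passed without the Renilla-hairpin library of T118 (0.00174) or of T91 (0.0425).

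Il33 (chr19:29925114-29960718, plus strand), a nuclear alarmin that acts on innate lymphoid cells, mast cells and regulatory T cells, was likewise highest in T91. Il33 reached 18.2 CPM in T113, 13.9 in T118 and 49.6 in T91 with the Scrib hairpin, and 12.7 in T113, 10.3 in T118 and 56.4 in T91 with the Renilla hairpin. Both T91 libraries lay far above the rest, while T113 and T118 overlapped. The level was 3.51-fold lower in T113 (log2 -1.81, SE 0.20, adjusted p = 0.00439) and 4.46-fold lower in T118 than in T91 (log2 -2.16, SE 0.20, adjusted p = 0.00185), and T113 and T118 differed by a log2 value of 0.35 with an SE of 0.20. Il1a (chr2:129299610-129309972, minus strand), the alarmin that binds Il1r1 on many cell types, had a level per kilobase of 0.429 to 2.21 CPM, against 3.56 to 19.6 for Il33. It had 0.846 CPM in T113, 1.24 in T118 and 2.99 in T91 with the Scrib hairpin, against 1.94 in T113, 4.37 in T118 and 3.59 in T91 with the Renilla hairpin. The lines overlapped, and the line effect did not pass with all libraries (adjusted p = 0.155). It passed without either T118 library (0.0190 without the Scrib-hairpin one, 0.0205 without the Renilla-hairpin one) and without the Renilla-hairpin library of T91 (0.0204).

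Lif (chr11:4257557-4272514, plus strand) was also highest in T91 and lowest in T118. With the Scrib hairpin it was at 10.5 CPM in T113, 5.53 in T118 and 17.2 in T91, and with the Renilla hairpin at 15.0 CPM in T113, 10.6 in T118 and 21.9 in T91. Both T91 libraries lay above the other 4, and T113 and T118 overlapped. It was 2.51-fold lower in T118 than in T91 (log2 -1.33, SE 0.20, adjusted p = 0.00938), while T113 against T91 did not pass with all libraries (log2 -0.64, SE 0.19, adjusted p = 0.135). The T118 call is lost with no hairpin term (0.0519). Csf1 (chr3:107741048-107760469, minus strand), the growth factor of macrophages, had 1.89 CPM in T113, 1.76 in T118 and 5.64 in T91 with the Scrib hairpin, and 2.48, 1.77 and 5.93 CPM in those lines with the Renilla hairpin. It was 2.66-fold lower in T113 (log2 -1.41, SE 0.26, adjusted p = 0.0287) and 3.27-fold lower in T118 than in T91 (log2 -1.71, SE 0.27, adjusted p = 0.0112). The T113 call is lost without either T113 library (0.409 without the Scrib-hairpin one, 0.217 without the Renilla-hairpin one) and without the Scrib-hairpin library of T91 (0.0597).

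Csf2 (chr11:54247271-54249667, minus strand), which encodes the granulocyte and macrophage factor GM-CSF, was barely detected and did not pass the low-count filter. It had 0 counts in T113, 0 in T118 and 5 in T91 with the Scrib hairpin, and 1 in T113, 3 in T118 and 9 in T91 with the Renilla hairpin. A count of 0 allows a level of up to 0.0976 CPM in T113 and 0.110 CPM in T118 with the Scrib hairpin, for counting error only, and no comparison was made. The fibroblast markers summed to 7.91 CPM in the T91 library of the Scrib hairpin and to 1.11 CPM in that of the Renilla hairpin. Between these libraries Cxcl1, Cxcl5, Cxcl16 and Ccl20 were higher with the Scrib hairpin, and Cxcl2, Il1a, Il33, Lif, Csf1 and Csf2 were lower. The part of other cells in these values was not tested.

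Under the hairpin, most of these genes leaned lower and none passed. Lif and Il1a had the smallest p-values, and each was lower with the Scrib hairpin in T113, T118 and T91. Of 9 tested genes, 7 had a negative and 2 a positive log2 fold change, with a median of -0.19 against -0.01 over all genes tested. With edgeR 0 of 9 had an adjusted p under 0.05, with DESeq2 and with limma-voom also 0. At an unadjusted p under 0.05 there were 2, Lif and Il1a, both lower, and 5.06% of all genes were lower at that level. Over all genes tested 7339 were lower and 6830 higher, and at that level 717 were lower and 219 higher. Lower in all 3 lines were 4 of the 9 (Cxcl2, Il1a, Lif and Csf1), where 15.4% of all genes were, and higher in all 3 lines was none, where 14.7% of all genes were. RNA from bulk cultures cannot tell fewer producing cells from less RNA per cell. Within-line ratios below have 1 library per hairpin, and their exact 95% intervals cover counting error only. Of the 4 genes lower in all lines, only Lif was lower beyond this error in each line. Csf1 was within it in every line, with log2 ratios of -0.39 in T113, -0.015 in T118 and -0.07 in T91.

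**Figure D3:**
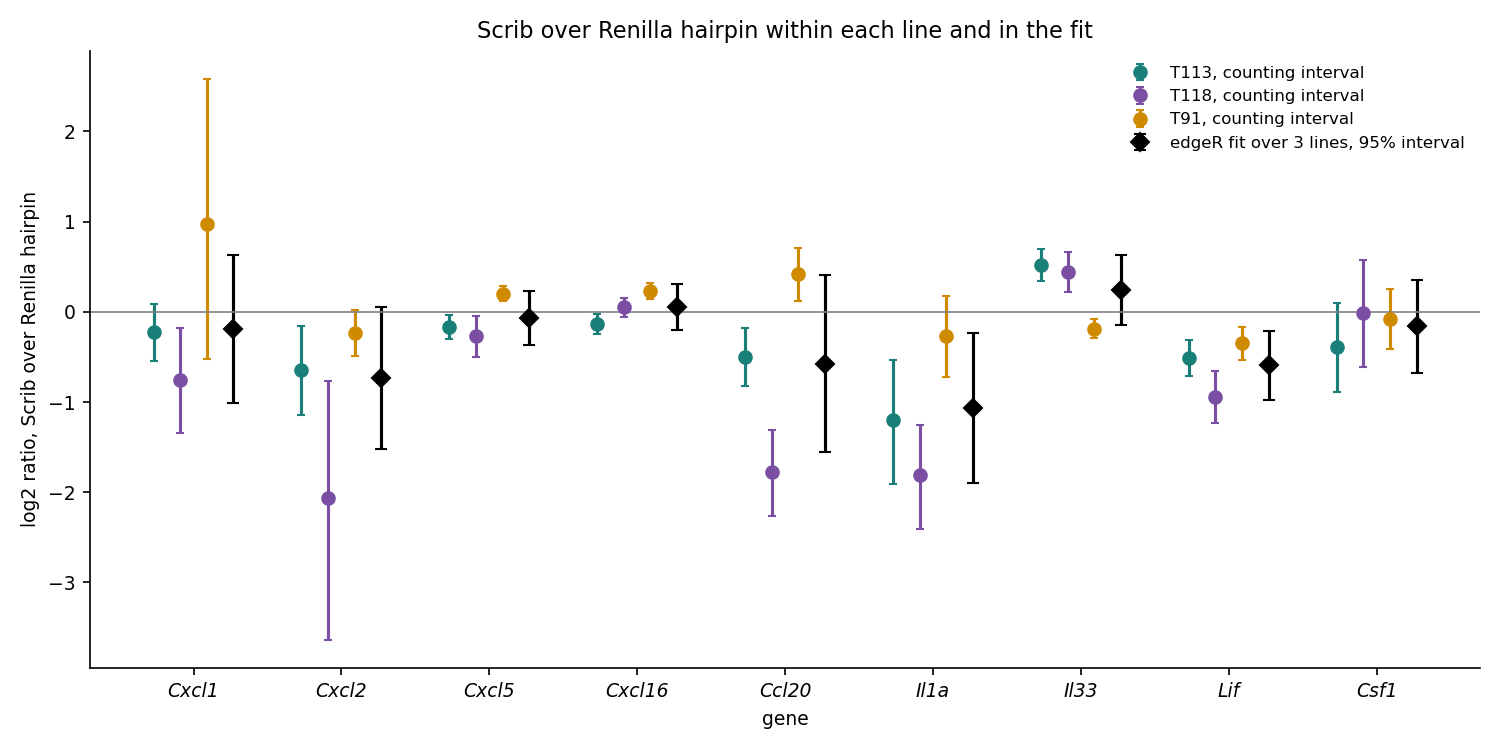
Log2 ratio of the Scrib over the Renilla hairpin (y axis) for the 9 tested genes, as circles per line with the exact 95% counting interval and as black diamonds for the edgeR fit over the 3 lines with its 95% interval. Lif lies below 0 in each line, Ccl20 runs from -1.78 in T118 to 0.42 in T91, and Il33 is above 0 in T113 and T118 and below 0 in T91.

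Lif averaged 11.1 ± 5.86 CPM with the Scrib hairpin and 15.8 ± 5.71 CPM with the Renilla hairpin (SD, n = 3 each). Its log2 ratio was -0.51 in T113 (-0.72 to -0.31), -0.94 in T118 (-1.23 to -0.66) and -0.35 in T91 (-0.53 to -0.17), and none of these counting intervals reached 0. The log2 fold change of the fit was -0.59 (SE 0.16, 95% interval -0.97 to -0.21, unadjusted p = 0.00841, adjusted p = 0.664 by edgeR).

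Il1a averaged 1.69 ± 1.14 CPM with the Scrib hairpin and 3.30 ± 1.24 CPM with the Renilla hairpin (SD, n = 3 each). The log2 ratio was -1.20 in T113 (-1.90 to -0.53), -1.81 in T118 (-2.40 to -1.26) and -0.26 in T91 (-0.72 to 0.18), the last within counting error. Over the lines the log2 fold change was -1.07 (SE 0.34, 95% interval -1.90 to -0.24, unadjusted p = 0.0193, adjusted p = 0.737 by edgeR). Cxcl2 had ratios of -0.64 in T113, -2.07 in T118 and -0.23 in T91 (-0.49 to 0.02), the last within counting error. The T118 ratio came from 6 counts with the Scrib hairpin and 27 with the Renilla hairpin. Over the lines Cxcl2 had a log2 fold change of -0.73 (SE 0.33, adjusted p = 0.772 by edgeR).

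Ccl20 and Il33 took opposite signs in different lines. The Ccl20 log2 ratio was -0.50 in T113 (-0.83 to -0.17), -1.78 in T118 (-2.26 to -1.31) and 0.42 in T91 (0.12 to 0.71). That of Il33 was 0.52 in T113 (0.34 to 0.70), 0.44 in T118 (0.22 to 0.66) and -0.19 in T91 (-0.29 to -0.08). Averaged over lines, Ccl20 had a log2 fold change of -0.57 (SE 0.40) and Il33 of 0.24 (SE 0.16). A difference of the hairpin response between lines was not tested, since 1 library per line and hairpin leaves no spread to test it with. For the remaining genes the fitted log2 fold change was -0.07 (SE 0.12) for Cxcl5, 0.05 (SE 0.11) for Cxcl16, -0.16 (SE 0.21) for Csf1 and -0.19 (SE 0.34) for Cxcl1. By line, the median ratio of the 9 genes was -0.39 in T113, -0.75 in T118 and -0.07 in T91, and 6, 6 and 2 of them were lower beyond counting error in these lines. Higher beyond counting error were 1 in T113, 1 in T118 and 3 in T91. The same medians and counts were not taken over all genes tested. They therefore mark no trait of these genes or of a line.

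Other secreted factors were taken from lists of the same kind, and 0 of 6 tested chemokines and 0 of 10 tested cytokines passed for the hairpin by edgeR. The gene with the smallest p-value was Il1rn, the antagonist that blocks Il1a at its receptor. It stood at 21.7 CPM in T113, 42.6 in T118 and 35.5 in T91 with the Scrib hairpin and at 49.8, 89.1 and 45.8 CPM in those lines with the Renilla hairpin, lower in each line (log2 -0.88, SE 0.17, unadjusted p = 0.00175, adjusted p = 0.554). Il18, a further cytokine of the interleukin-1 family, had a log2 fold change of -2.24 (SE 0.48, adjusted p = 0.554) at levels of 0.033 to 2.39 CPM, and the mucosal chemokine Ccl28 one of -1.09 (SE 0.39, adjusted p = 0.748) at up to 1.64 CPM. Between lines, Cx3cl1, the membrane-bound fractalkine, was highest in T118 at 54.6 CPM with the Scrib hairpin and 70.3 CPM with the Renilla hairpin (line effect, adjusted p = 0.0168). Il34, which shares the receptor of Csf1, was highest in T91 as Csf1 was, at 9.72 CPM with the Scrib hairpin and 8.68 with the Renilla hairpin (adjusted p = 0.00368). Clcf1, a ligand of the same family as Lif, was also highest there, at 15.1 CPM with the Scrib hairpin and 18.1 with the Renilla hairpin (adjusted p = 0.0107), whereas Tnf peaked in T113 at 7.52 CPM with the Scrib hairpin and 11.1 with the Renilla hairpin (adjusted p = 0.0314). Line effects were called for 4 of the 6 chemokines and 4 of the 10 cytokines, against 14% of all genes tested.

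Receptors of the 10 factors were measured in the same libraries. Of 15 receptor genes 6 passed the low-count filter, and 0 passed for the hairpin by edgeR. Lifr was at 10.2 CPM in T113, 2.85 in T118 and 12.3 in T91 with the Scrib hairpin and at 9.27, 2.15 and 16.5 CPM in those lines with the Renilla hairpin, so T118 was low in both the receptor and its ligand (line effect, adjusted p = 0.00421). Its partner Il6st did not differ detectably between lines (adjusted p = 0.948). Il1r1 was lowest in T118, at 18.7 CPM with the Scrib hairpin and 21.5 with the Renilla hairpin (line effect, adjusted p = 0.0263), and was lower with the Scrib hairpin in each line (log2 -0.31, SE 0.11, adjusted p = 0.745). Csf1r, the receptor of Csf1, was at 0.379 CPM or less in all 6 libraries. Among genes that release or trim these ligands, 0 of 15 tested passed for the hairpin and 5 differed between lines (14% of all genes tested did), among them Dpp4, which trims chemokines, and Rhbdf2, a cofactor of the sheddase Adam17. Adam10, which sheds Cxcl16, had a log2 fold change of -0.20 (SE 0.11), and the calpain gene Capn2 one of 0.21 (SE 0.10, adjusted p = 0.772).

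Genes that relay the inducing signals and targets of NF-kB were read beside the cytokines, with line effects in 14% of all genes tested. Under the hairpin 7339 of all genes tested were lower and 6830 higher, and no list was tested against this split. Of 25 genes of the toll-like, tumour necrosis factor and NF-kB relay, the 1 with a line effect was Tlr5, the flagellin receptor (adjusted p = 0.00960), and 19 were lower and 6 higher under the hairpin with 0 passing. Nfkb1 had a log2 fold change of -0.23 (SE 0.09), Tlr4 of -0.34 (SE 0.14) and Tnfrsf1b of -0.34 (SE 0.10). Of 20 tested NF-kB target genes outside the 10 cytokines, 16 were lower and 4 higher under the hairpin (median -0.19) and 0 passed. Nfkbiz, a co-activator of such genes, was lower with the Scrib hairpin in each line, at 42.6 CPM in T113, 31.5 in T118 and 52.0 in T91 against 51.2, 44.1 and 70.1 CPM with the Renilla hairpin (log2 -0.39, SE 0.10, adjusted p = 0.613). The feedback inhibitor Tnfaip3 had a log2 fold change of -0.42 (SE 0.14, adjusted p = 0.744). For 8 of the 20 the lines differed, and whether this share differs from that of the relay genes was not tested. Icam1, Cebpb, Nfkbie, Ier3 and Nfkbiz, named by their p-values, had their highest mean in T91 like Cxcl2 and Cxcl5, with log2 fold changes of T118 over T91 of -1.72, -0.95, -2.04, -1.33 and -0.69. Tnfaip2 also had its highest mean in T91, but it was lowest in T113 (T113 over T91, log2 -2.19) and closer to T91 in T118 (T118 over T91, log2 -0.27).

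**Figure D4:**
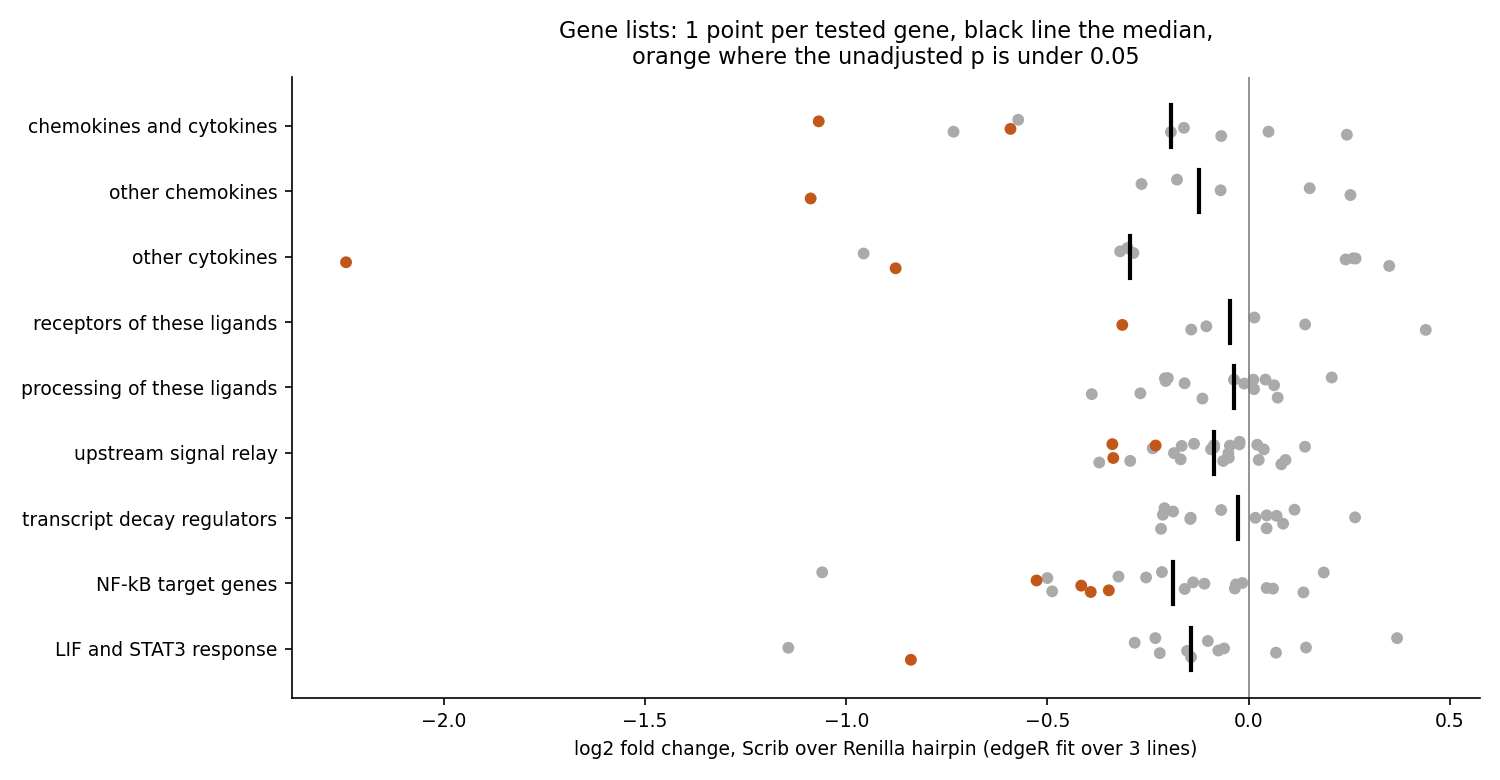
Log2 fold change of the Scrib over the Renilla hairpin (x axis, edgeR fit over the 3 lines) of the tested genes of each list, with black lines for the medians and orange points for an unadjusted p under 0.05. The medians lie between -0.29 for other cytokines and -0.03 for transcript decay regulators, and no gene shown passed over all genes tested.

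Regulators of transcript decay split evenly. Of 14 genes, all tested, 7 were higher and 7 lower under the hairpin, with a median of -0.03, and 0 passed. Zfp36, which binds ATTTA letters, was at 45.6 CPM in T113, 53.5 in T118 and 51.9 in T91 with the Scrib hairpin and at 51.1, 70.4 and 51.8 CPM in those lines with the Renilla hairpin (log2 -0.19, SE 0.11, adjusted p = 0.783). Zfp36l1 was highest in T91, at 116 CPM with the Scrib hairpin and 102 with the Renilla hairpin, against 62.2 to 68.3 CPM in the other libraries (line effect, adjusted p = 0.0144).

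Genes of Lif and STAT3 signalling, relay and receptor genes as well as response genes, were read beside the ligand. Of 13 tested, 10 were lower and 3 higher under the hairpin (median -0.14), 0 passed and 2 differed between lines, a share close to the 14% of all genes tested. Over all genes tested, 7339 were lower and 6830 higher under the hairpin. Socs3, the feedback inhibitor that STAT3 induces, was at 20.4 CPM in T113, 11.6 in T118 and 28.9 in T91 with the Scrib hairpin and at 22.7, 15.0 and 31.7 CPM in those lines with the Renilla hairpin, the same order of lines as Lif (line effect, adjusted p = 0.00716). Osmr, a receptor subunit of the same family, had a log2 fold change of T118 over T91 of -3.67 and a hairpin log2 fold change of -0.84 (SE 0.28, adjusted p = 0.742).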

How the data were processed

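Messenger RNA of 6 organoid cultures was sequenced as Illumina libraries, per the labels' protocols. The authors deposited a table of estimated counts for each library, with Ensembl genes in rows and no scaling for depth, and the submitters' processing notes name Salmon 1.4.0, DESeq 2 and the build GRCm38 (mm10). Annotation, strand setting and trimming are not stated in the labels, so reads of overlapping antisense genes may not have been told apart, and Salmon can share reads among similar transcripts. The treatment label speaks of virus, the series' design text of transfected plasmids.

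The estimated counts were rounded and tested with edgeR 4.0.16 in R 4.3.3 (quasi-likelihood F-test, robust, two-sided, terms for line and hairpin) after filterByExpr on the hairpin groups (minimum count 10) and TMM scaling. Benjamini-Hochberg adjustment ran over 14169 genes, with a threshold of 0.05. Rows without a symbol (322 of 54453) stayed in the test. The fit has 2 residual and 4.43 prior degrees of freedom. The spread between libraries of a line is what an average hairpin effect leaves over. Replicate numbers are the lines, so they pair libraries of the same organoid line. Across genes, deviations from the group means correlated between paired libraries at 0.822 in T113, 0.722 in T118 and 0.680 in T91. The procedure was tested on simulated data. CPM per kilobase used the union of exons in GENCODE M21, and intervals of within-line ratios are exact binomial ones at 95%.

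The 10 genes, the gene lists and the tests were chosen with earlier results of these data known. The text names the 10 genes, Scrib, up to 4 genes per list by p of the hairpin and up to 4 by p of the line, and up to 3 marker genes per cell type by mean CPM. Ptprc, C1qa, Csf3 and Il6 belong to these lists and were named after their values were seen. Alternatives were DESeq2 1.42.0, limma-voom (limma 3.58.1), other scalings, other filters (none, or an average of at least 5 CPM), other terms and leaving out lines or libraries.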

Additional observations from a re-analysis of the deposited data

Results flagged for a closer look

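For 4 genes the log2 ratio of the Scrib over the Renilla hairpin took opposite signs in different lines, each beyond counting error. How many of all genes tested did so was not counted, so this is no trait of these genes. Counting error also leaves out the spread between cultures. Ccl20 was lower with the Scrib hairpin in T118 (-1.78) and T113 (-0.50) and higher in T91 (0.42). Il33 was higher with the Scrib hairpin in T113 (0.52) and T118 (0.44) and lower in T91 (-0.19). Cxcl5 was lower in T118 (-0.27) and T113 (-0.17) and higher in T91 (0.20), and Cxcl16 was lower in T113 (-0.13) and higher in T91 (0.23). The T91 side of these signs rests on 1 library of each hairpin. That of the Scrib hairpin also held more of some markers of other cells. Its fibroblast markers summed to 7.91 CPM, against 1.11 CPM with the Renilla hairpin in T91. With the Scrib hairpin in T91, Col1a1 was at 3.53 CPM, Lyz2 at 1.14 and C1qa at 0.757, and with the Renilla hairpin in T91 Col1a1 was at 0.503 CPM, Lyz2 at 0.101 and C1qa at 0.0335. Cd68 differed less, at 3.70 CPM with the Scrib and 3.02 with the Renilla hairpin in T91. Lower with the Scrib hairpin in T91 were S100a9 (0.463 against 0.570 CPM) and the sum of T, B and NK cell markers (0.042 against 0.067 CPM). The part of other cells in the ratios was not tested. These differences between lines were not tested, because each line has 1 library per hairpin and the spread between cultures of a line was not measured.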

How the results depend on the processing

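No setting called any of the 10 genes for the hairpin, and the fit without the replicate block, which drops the pairing by line, called 1 gene in all and 0 of the 10. The hairpin call over all genes was 1 with edgeR, 8 with limma-voom, 63 with DESeq2 and 64 with no low-count filter, and between 9 and 94 when a line was left out. Without the replicate block Cxcl5 turned to 0.089. With a line left out the hairpin log2 value ran from -0.46 to 0.10 for Cxcl1, from -0.22 to 0.019 for Cxcl5 (both above 0 without T118) and from -0.041 to 0.14 for Cxcl16 (below 0 without T91), and the cause was not tested. For the line effect, 1989 genes were called, 1310 with the filter at 5 CPM and between 1274 and 4328 without a library. At that filter 4 in place of 7 of the cytokine genes were called, since it removes the scarcer ones from the test. T113 against T91 gave 859 genes and, without a library, 405 to 1819, with 6 of the cytokine genes, 3 at that filter and 3 to 8 without a library. T118 against T91 gave 1564 genes, 1031 at that filter and 1298 to 2800 without a library, with 6 and 3 of the cytokine genes. T113 against T118 gave 1452 genes, 955 at that filter and 434 to 3433 without a library, with 2 of the cytokine genes, 1 at that filter, 5 with no filter and 1 to 5 without a library. Without a library the log2 value ran from -1.32 to 0.22 for Ccl20 in T113 over T91, from -0.30 to 1.44 for Ccl20 in T113 over T118, and from -1.10 to 0.17 for Il1a in T118 over T91. A line with a library left out has 1 sample, assumed to vary like the rest. Below about 10 counts, as for Csf2, for Cxcl1 in T91 and for Cxcl2 in T118 with the Scrib hairpin, depth limits the values.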

Other observations

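Csf3 and Il6, cytokines that epithelium can make beside the 10 described, were on the list of other cytokines and failed the low-count filter. Csf3, the growth factor of neutrophils, was at 0.033 CPM in T113, 0.073 in T118 and 1.81 in T91 with the Scrib hairpin and at 0.054, 0.034 and 1.71 CPM in those lines with the Renilla hairpin. Il6 had no counts in any of the 6 libraries.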
